A study of Mus musculus with 30 samples.

Results

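The 9 genes described here are regulators and markers of myogenic cells, chosen by name: Myod1, Myog, Myf5, Myf6, Pax7, Cdh15, Mymk, Heyl and Calcr. Each was found by matching its Ensembl identifier to its symbol, which gave 9 of the 56980 genes in the deposited count table. Their transcripts were measured by RNA sequencing of the soleus, a slow postural muscle of the lower hindlimb, in 30 C57BL/6J mice aged 3 to 4 months. Ambulatory (AMB) mice moved freely for 4 weeks, and hindlimb unloading (HU) kept the hindlimbs off the floor for 4 weeks. Control (Ctrl) mice carried floxed alleles of the AMPKα1 and AMPKα2 genes and no Cre, and mKO mice had both catalytic subunits of the energy-sensing kinase AMPK deleted in skeletal muscle. Since the controls lack Cre, a comparison of genotypes cannot tell apart loss of AMPK and any effect of Cre itself. What drives the Cre is not stated in the labels. The groups held 8 AMB Ctrl, 7 AMB mKO, 7 HU Ctrl and 8 HU mKO mice, each with both sexes.

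Skeletal muscle fibres do not divide, and new muscle nuclei come from satellite cells that lie under the basement membrane of the fibre. Pax7 is the transcription factor that marks these cells, and Calcr, the calcitonin receptor, and Heyl, a transcriptional repressor induced by Notch, are associated with their quiescence. The myogenic regulatory factors Myf5, Myod1, Myog and Myf6 are basic helix-loop-helix proteins that pair with E proteins, bind E-boxes and drive commitment and differentiation. Cdh15 encodes M-cadherin, an adhesion protein between satellite cell and fibre, and Mymk encodes myomaker, a membrane protein needed for myoblast fusion. Myf6, and at low level Myod1 and Myog, are also transcribed in the nuclei of mature fibres, and Heyl is also known from the mural cells of small vessels. In whole muscle, fewer cells of a type and less RNA per cell cannot be told apart.

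Promoter sequence, credited to RefSeq on GRCm38.p6, was matched for 5 of the 9 genes (Myog, Myf5, Pax7, Cdh15 and Calcr). Myod1, Myf6, Mymk and Heyl had no entry. Motifs of 3 kinds were searched on both strands of the 250 bases before each start. They are the E-box CANNTG, bound by the myogenic factors, a relaxed MEF2 site CTANNNNTA, and the core TGGGAA bound by RBPJ, the DNA-binding partner of Notch. Of 32851 such windows in the table, 66.2% held an E-box, 19% a relaxed MEF2 match and 21.6% an RBPJ core, so each match is common by itself. The windows of Myog (chr1:134289754-134290003, plus strand), Cdh15 (chr8:122848124-122848373, plus strand) and Myf5 (chr10:107486135-107486384, minus strand) are shown because they hold different combinations of these letters. Capitals mark the matches, and the sequences read 5′ to 3′ towards the start.
Myog: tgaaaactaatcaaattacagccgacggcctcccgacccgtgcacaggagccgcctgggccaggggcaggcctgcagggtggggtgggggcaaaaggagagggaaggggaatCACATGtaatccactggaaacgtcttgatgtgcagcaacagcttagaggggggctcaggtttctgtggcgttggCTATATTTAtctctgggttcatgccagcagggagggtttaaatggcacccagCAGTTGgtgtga
Cdh15: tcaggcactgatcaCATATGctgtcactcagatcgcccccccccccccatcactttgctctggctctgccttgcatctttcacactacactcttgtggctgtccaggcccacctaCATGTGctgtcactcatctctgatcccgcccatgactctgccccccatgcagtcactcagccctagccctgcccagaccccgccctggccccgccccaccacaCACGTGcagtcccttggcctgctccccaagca
Myf5: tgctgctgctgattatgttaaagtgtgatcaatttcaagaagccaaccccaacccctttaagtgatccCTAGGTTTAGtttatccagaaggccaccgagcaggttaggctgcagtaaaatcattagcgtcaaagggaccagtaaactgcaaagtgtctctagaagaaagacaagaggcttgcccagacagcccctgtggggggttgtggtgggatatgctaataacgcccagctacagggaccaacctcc

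The Myog window held 2 E-boxes, CACATG beginning 138 bases and CAGTTG 12 bases before the start, and 1 MEF2 match, CTATATTTA, at 64 bases. The Cdh15 window held 3 E-boxes, at 236, 135 and 32 bases before the start, and no MEF2 match. The Myf5 window held no E-box and 2 overlapping matches of the relaxed MEF2 pattern, at 182 and 181 bases. They share letters of 1 stretch on opposite strands, and the pattern takes any base at its N positions. The Pax7 window held none of the 3 motifs, and of the 2 Calcr windows 1 held an E-box and a MEF2 match. No RBPJ core was found in any window of these genes. These are letter matches in short windows and were not tied to binding in this muscle.

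Levels are counts-per-million (CPM) values, with library sizes scaled by the trimmed mean of M values (TMM). Each library held between 12.1 and 20.9 M counts in all. In every mKO library Prkaa2, the gene of AMPKα2, lay between 15.0 and 112 CPM, below the Ctrl range of 129.9 to 345.5 CPM. Prkaa1, the gene of AMPKα1, overlapped, with 8.21 to 36.2 CPM in mKO and 16.5 to 30.4 CPM in Ctrl libraries. AMB mKO replicate 2 gave both the lowest Prkaa2 and the highest Prkaa1 value. One library stood apart from the other 29. In AMB mKO replicate 2 the summed slow and mixed fibre markers (10 genes) reached 2187 CPM, where the other libraries held 21853 to 93633 CPM. The summed adipocyte markers (10 genes) reached 18487 CPM there, against 2045 to 7017 CPM elsewhere, and fibro-adipogenic progenitor markers 8797 against 1339 to 4135 CPM. Sample titles close with a letter, a, b or c, whose meaning no label states. Values within letters are given for Heyl and for the pairs of genes that stayed called without AMB mKO replicate 2.

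That library was also the lowest of all 30 for 8 of the 9 genes. For Mymk it held no read and shared the lowest value, 0 CPM, with other libraries. It held 0.0905 CPM of Pax7, from 2 reads, against 2.89 to 12.1 CPM elsewhere. Cdh15 measured 0.905 CPM there and 13.7 to 45.8 CPM in the others, and Myf6 2.94 against 29.1 to 70.2 CPM. Heyl was the least apart, at 7.37 against 7.42 to 28.9 CPM. The low values went with low fibre markers and high adipocyte markers, whose part in the result was not tested. Results are therefore given with and without this library where it moves them.

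**Figure D1:**
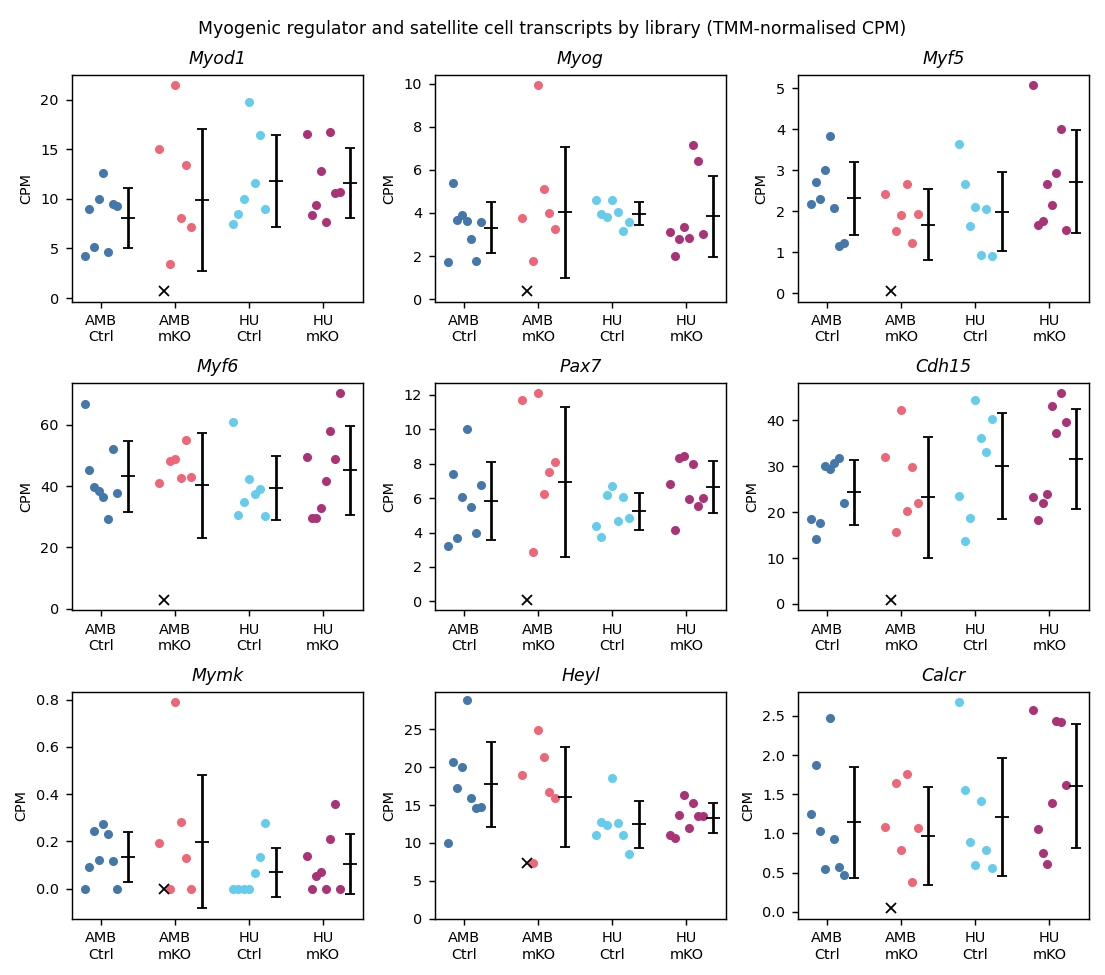
TMM-scaled CPM (y axis) of the 9 genes in each of the 30 libraries, grouped on the x axis by loading (AMB, HU) and genotype (Ctrl, mKO). Points are mice, the cross is AMB mKO replicate 2, and the bars give the mean and SD. The 4 groups overlap for every gene, and the cross is the lowest point in 8 of 9 panels. For Mymk the cross shares the lowest value, 0 CPM, with other libraries.

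The 9 transcripts differed widely in level. Per kilobase of exon, Myf6 was highest at 33.4 ± 10.4 CPM per kb (SD, n = 30), followed by Cdh15 at 8.40 ± 3.33 and Myod1 at 5.53 ± 2.56. Heyl followed at 2.92 ± 0.966 CPM per kb and Myog at 2.53 ± 1.21. Myf5 at 1.06 ± 0.499 and Pax7 at 1.05 ± 0.433 could not be ordered, since Myf5 was above Pax7 in 16 of 30 libraries. Calcr measured 0.318 ± 0.185 and Mymk 0.0831 ± 0.110 CPM per kb. Myf6 was above Cdh15 in 30 of 30 libraries, Cdh15 above Myod1 in 26 and Myod1 above Heyl in 27. Heyl and Myog overlapped more, with Heyl higher in 22 of 30. The 2 lowest genes rest on few reads: Calcr had 1 to 42 reads per library and Mymk 0 to 10. Per kilobase, the factor of mature fibres was thus the most abundant of the 9, and Pax7, Calcr and Mymk were among the lowest. Cdh15, also a gene of satellite cells, came directly after Myf6. Without division by exon length, Pax7 at a mean of 6.17 CPM lay above Myog at 3.78 and Myf5 at 2.20 CPM.

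None of the 8 genes that passed the low-count filter was called between genotypes or between loading states by the edgeR quasi-likelihood test, called meaning a p below 0.05 after Benjamini-Hochberg adjustment over the 16932 tested genes. Between mKO and Ctrl, 0.0177% of all genes were called in AMB mice and 0.0177% in HU mice, so that a count of 0 of 8 matches the table as a whole. Unloading called 11.1% of all genes in Ctrl mice and 10.1% in mKO mice, and 28.5% when HU and AMB were compared over both genotypes. A count of 0 of 8 is near the first 2 of these shares and below 28.5%. The interaction of genotype and unloading called 0% of all genes, and 2.42% had an unadjusted p below 0.05. Among the 8 genes, Heyl alone had an unadjusted p below 0.05, in the unloading of Ctrl mice, where 26.4% of all genes had one, and over both genotypes, where 39.6% had one. The ranges of the groups overlapped for all 8. Ranges without overlap were rare in the table too. Between genotypes, mKO lay wholly above Ctrl for 0.0236% and wholly below for 0.0118% of all genes in AMB mice, and for 0.0177% and 0.0118% in HU mice. HU lay wholly above AMB for 1.44% and wholly below for 2.12% of all genes in Ctrl mice, and for 1.13% and 0.372% in mKO mice. DESeq2 called none of the 8 in any comparison, while limma with library weights called Heyl in the unloading of Ctrl mice and over both genotypes, and Cdh15 over both genotypes.

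**Figure D2:**
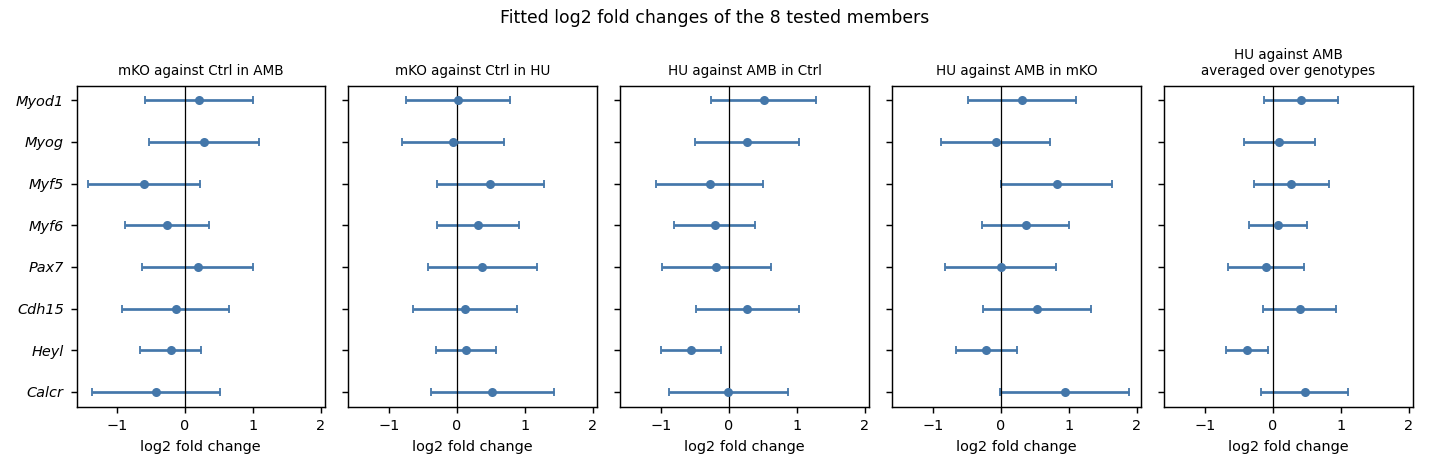
Fitted log2 fold changes (x axis) with 95% intervals of the 8 tested genes (y axis) in 5 comparisons, 1 per panel, from the edgeR model with sex as a covariate. Intervals cross 0 in both genotype panels for all 8 genes. In the unloading panels 3 do not: Heyl in Ctrl mice (-0.99 to -0.11), Myf5 in mKO mice (0.0047 to 1.63) and Heyl over both genotypes (-0.69 to -0.08), none with an adjusted p below 0.05. The intervals are an approximation somewhat narrower than the edgeR test implies. For Myf5 in mKO mice that test gave an unadjusted p of 0.0582, so its interval leaves out 0 only through the approximation.

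Myod1 (ENSMUSG00000009471), the commitment factor, had its lowest, median and highest values at 4.24, 9.09 and 12.6 CPM in AMB Ctrl and 0.679, 8.08 and 21.5 CPM in AMB mKO. In HU Ctrl these were 7.42, 9.996 and 19.8 CPM, and in HU mKO 7.64, 10.6 and 16.7 CPM. The widest spread was in AMB mKO, and every pair of groups overlapped. Over both genotypes the mean was 8.90 ± 5.26 CPM in AMB and 11.7 ± 3.89 CPM in HU mice (SD, n = 15 each), a fitted log2 difference of 0.41 ± 0.28 SE (edgeR adjusted p = 0.271) with a 95% interval from -0.13 to 0.96. The mKO minus Ctrl difference was 0.21 ± 0.40 in AMB mice and 0.02 ± 0.39 in HU mice. The interval of the former, from -0.58 to 1.00, includes a doubling. Without AMB mKO replicate 2 the difference in AMB mice was 0.47 ± 0.32, the mean of the other 6 AMB mKO mice being 11.4 ± 6.51 CPM, and it was not called (adjusted p = 1 in edgeR). For the 8 tested genes the same difference then ran from -0.31 (Myf5) to 0.60 (Myog), none called.

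Myf5 (ENSMUSG00000000435), the other early factor, was scarce. Its lowest, median and highest values were 1.15, 2.24 and 3.85 CPM in AMB Ctrl, 0.0452, 1.90 and 2.67 in AMB mKO, 0.901, 2.05 and 3.64 in HU Ctrl and 1.54, 2.42 and 5.08 in HU mKO. HU mKO held the 2 highest libraries of all, replicate 1 at 5.08 and replicate 7 at 4.00 CPM. The fitted HU minus AMB difference was 0.82 ± 0.42 in mKO mice (adjusted p = 0.201 in edgeR) and -0.28 ± 0.40 in Ctrl mice. The interaction, which tests whether these differ, was 1.10 ± 0.59 (unadjusted p = 0.0720, adjusted p = 0.999 in edgeR). Without AMB mKO replicate 2, which had 1 Myf5 read, the difference in mKO mice was 0.54 ± 0.33 and the interaction 0.77 ± 0.46.

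Myog (ENSMUSG00000026459), the differentiation factor that is known to rise strongly when muscle loses its nerve, was close in all groups. Its lowest, median and highest values were 1.75, 3.61 and 5.38 CPM in AMB Ctrl and 0.362, 3.77 and 9.95 CPM in AMB mKO. They were 3.17, 3.97 and 4.60 CPM in HU Ctrl and 2.01, 3.07 and 7.17 CPM in HU mKO. The HU Ctrl mice formed the tightest group and lay wholly within the range of the AMB Ctrl mice. The HU minus AMB difference over both genotypes was 0.10 ± 0.27 (edgeR adjusted p = 0.824), with a 95% interval from -0.43 to 0.62. The interval over both genotypes leaves out a doubling of Myog after 4 weeks of unloading. In Ctrl mice alone it ran from -0.49 to 1.02, which includes a doubling, and in mKO mice from -0.87 to 0.72.

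Myf6 (ENSMUSG00000035923), which encodes MRF4 and is the main myogenic factor of adult fibres, was measured at similar levels in all groups. Its lowest, median and highest values were 29.1, 39.1 and 66.8 CPM in AMB Ctrl, 2.94, 42.8 and 55.1 in AMB mKO, 30.4, 37.4 and 60.9 in HU Ctrl and 29.6, 45.3 and 70.2 in HU mKO. The medians of the 4 groups lay between 37.4 and 45.3 CPM. Over both genotypes HU minus AMB was 0.08 ± 0.22 (edgeR adjusted p = 0.824), and -0.05 ± 0.13 without AMB mKO replicate 2. Females had 38.1 ± 15.1 and males 46.2 ± 9.67 CPM (SD, n = 15 each), a log2 difference of -0.39 ± 0.23 (edgeR adjusted p = 0.492). It was -0.21 ± 0.13 with AMB mKO replicate 2, a female, left out. No member was called between the sexes, where 0.213% of all genes were. Fitted values were lower in females for 7 of the 8 tested genes with that library and for 6 of 8 in its absence, where Pax7 had a value above 0 (0.03 ± 0.18) and Cdh15 measured -0.01 ± 0.19.

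Pax7 (ENSMUSG00000028736), the satellite cell factor, had its lowest, median and highest values at 3.24, 5.79 and 10.03 CPM in AMB Ctrl and 0.0905, 7.51 and 12.1 CPM in AMB mKO. In HU Ctrl these were 3.77, 4.85 and 6.71 CPM and in HU mKO 4.13, 6.44 and 8.42 CPM. Both unloaded groups lay inside the range of AMB Ctrl. HU minus AMB over both genotypes was -0.09 ± 0.28 (edgeR adjusted p = 0.838), with a 95% interval from -0.65 to 0.46. The mKO minus Ctrl difference was 0.19 ± 0.42 in AMB and 0.37 ± 0.41 in HU mice. Without AMB mKO replicate 2 the former was 0.48 ± 0.26 and the mean of the remaining 6 AMB mKO mice 8.08 ± 3.45 CPM, against 5.83 ± 2.26 CPM in AMB Ctrl (adjusted p = 1 in edgeR).

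Calcr (ENSMUSG00000023964), a receptor of quiescent satellite cells, showed the largest fitted unloading difference of the 8 genes in mKO mice, and it was not called. Its lowest, median and highest values were 0.472, 0.979 and 2.47 CPM in AMB Ctrl and 0.0452, 1.07 and 1.76 CPM in AMB mKO. In HU Ctrl they were 0.554, 0.895 and 2.68 CPM and in HU mKO 0.616, 1.50 and 2.58 CPM. HU minus AMB was 0.94 ± 0.49 in mKO mice (edgeR adjusted p = 0.209) and -0.01 ± 0.45 in Ctrl mice, with an interaction of 0.94 ± 0.68 (unadjusted p = 0.176). Without AMB mKO replicate 2, which had 1 Calcr read, the difference in mKO mice was 0.64 ± 0.44.

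Heyl (ENSMUSG00000032744) was the one gene of the 9 whose unloading difference stood close to the threshold. Its lowest, median and highest values were 9.97, 16.6 and 28.9 CPM in AMB Ctrl and 8.59, 12.4 and 18.6 CPM in HU Ctrl. In AMB mKO they were 7.37, 16.7 and 24.9 CPM and in HU mKO 10.7, 13.6 and 16.3 CPM. Of the 7 HU Ctrl mice 6 lay at or below 12.8 CPM, while 7 of 8 AMB Ctrl mice lay at or above 14.6 CPM, so the groups overlapped through HU Ctrl replicate 4 at 18.6 CPM and AMB Ctrl replicate 1 at 9.97 CPM. Over both genotypes the mean was 17.0 ± 5.96 CPM in AMB and 12.9 ± 2.48 CPM in HU mice (SD, n = 15 each). The fitted difference was -0.38 ± 0.16, a 1.30-fold lower value, with a 95% interval from -0.69 to -0.08 (unadjusted p = 0.0205, adjusted p = 0.0653 in edgeR).

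The same difference for Heyl was -0.55 ± 0.22 in Ctrl mice (edgeR adjusted p = 0.108) and -0.21 ± 0.23 in mKO mice (edgeR adjusted p = 0.582). The interaction was 0.34 ± 0.33 (unadjusted p = 0.306). Without AMB mKO replicate 2 the difference over both genotypes was -0.44 (adjusted p = 0.0203 in edgeR), and without the 3 libraries richest in adipocyte markers -0.45 (adjusted p = 0.0253 in edgeR). It thus crosses the threshold when 1 library is left out. In Ctrl mice the mean log2 value was lower in HU than in AMB within each title letter, by 0.45, 0.58 and 0.34 for a, b and c. In mKO mice the letters a and b gave -0.71 and -0.28 and the letter c, which holds AMB mKO replicate 2, gave 0.66. Of 10 markers of vascular smooth muscle and pericytes in Ctrl mice, none rose and Acta2, Myh11, Cnn1 and Cspg4 fell. Of the 10, 8 had lower values and the median was -0.36. Their summed level had the higher mean in HU Ctrl, 1140 ± 88.2 CPM against 1051 ± 98.3 CPM in AMB Ctrl. Myh11 was not called without the low-count filter (edgeR adjusted p = 0.0643) or without the sex term (edgeR adjusted p = 0.0915). In mKO mice none of the 10 was called, 4 had lower values and the median was 0.05. Over both genotypes Rgs5 rose (not called by limma, adjusted p = 0.0608), Tagln and Cspg4 fell, 8 had lower values and the median was -0.19. Their summed level ran from 933 to 1171 CPM in AMB Ctrl and from 1024 to 1296 CPM in HU Ctrl. None of these markers was at 0 in all 30 libraries, and their part in the result was not tested.

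Cdh15 (ENSMUSG00000031962), M-cadherin, had its lowest, median and highest values at 14.1, 25.6 and 31.8 CPM in AMB Ctrl and 0.905, 21.9 and 42.2 CPM in AMB mKO. In HU Ctrl they were 13.7, 33.0 and 44.3 CPM and in HU mKO 18.4, 30.5 and 45.8 CPM. Of the 7 HU Ctrl mice 4 exceeded the highest AMB Ctrl mouse, while the lowest HU Ctrl mouse lay below all AMB Ctrl mice, so the ranges overlapped. HU minus AMB over both genotypes was 0.40 ± 0.27 (edgeR adjusted p = 0.286), and 0.28 ± 0.18 without AMB mKO replicate 2. The limma fit with library weights called it at 0.48 (adjusted p = 0.0459).

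Mymk (ENSMUSG00000009214), myomaker, did not pass the low-count filter. No read was found in 2 of 8 AMB Ctrl, 3 of 7 AMB mKO, 4 of 7 HU Ctrl and 3 of 8 HU mKO libraries. Group means were 0.135 ± 0.107, 0.199 ± 0.283, 0.0681 ± 0.105 and 0.103 ± 0.127 CPM in that order. AMB mKO replicate 4 held the highest value, 0.790 CPM from 10 reads, and the same mouse was highest of all for Myod1 (21.5 CPM), Myog (9.95 CPM) and Pax7 (12.1 CPM). In a fit without the low-count filter HU minus AMB over both genotypes was -0.99 ± 0.66 (edgeR adjusted p = 0.384). A difference of this gene was not detectable at this depth.

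Some of the genes varied together between mice of the same group. Pearson's r was computed over the 30 mice on log2 CPM after subtracting group means, for all 28 pairs of the 8 tested genes, with two-sided p-values from 100000 permutations of mice within groups and Benjamini-Hochberg adjustment over the pairs. Both values of a pair come from the same library and share its depth and tissue makeup. All 28 r were positive, from 0.27 to 0.90 with a median of 0.72, and 18 had an adjusted p below 0.05 (11 by Spearman's rho). Much of this rested on 1 mouse: without AMB mKO replicate 2, r ran from -0.22 to 0.79 with a median of 0.27, and 8 pairs remained (5 by Spearman's rho), all 8 among the former 18. The share of all gene pairs passing this test was not computed, so these counts have no background to be read against. Without that library, Rab15 with r = 0.58 ranked only 64th among the genes most like Myog. For Pax7, Zfp827 with r = 0.54 ranked 314th, and the highest value was 0.81, with Ppargc1b.

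**Figure D3:**
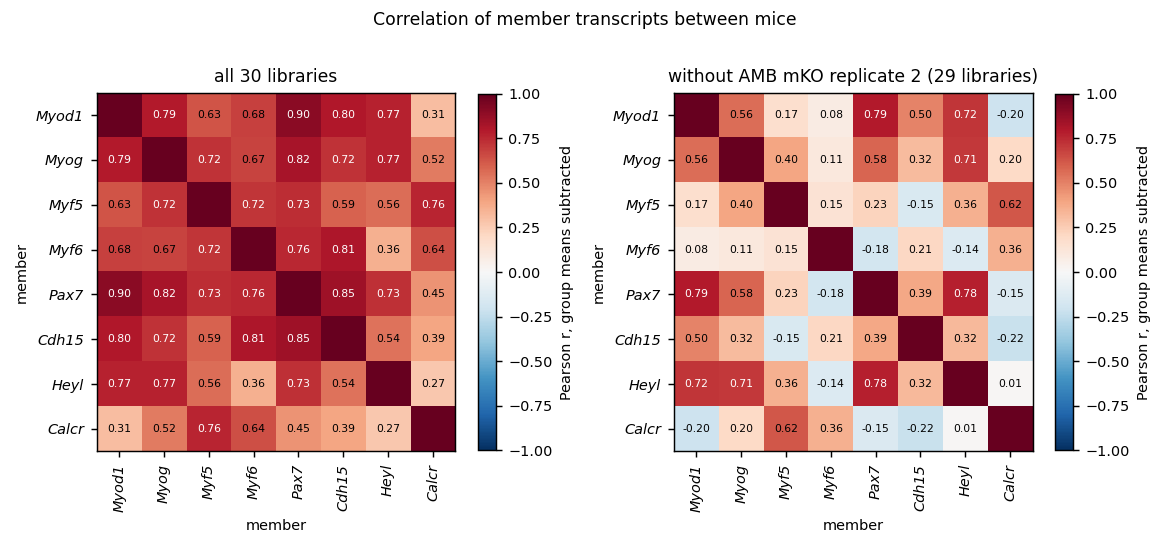
Pearson's r (colour and printed value) between the 8 tested genes on both axes, over mice after subtracting group means, in 30 libraries (left) and in the 29 without AMB mKO replicate 2 (right). On the right, Myod1, Pax7, Myog and Heyl keep values from 0.56 to 0.79 among themselves, and Myf5 pairs with Calcr at 0.62.

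Of the 8 pairs that remained, 5 joined Myod1 or Myog to Pax7 or Heyl, or Pax7 to Heyl. Myod1 and Pax7 had r = 0.90 and rho = 0.77 (permutation p = 1e-05, the smallest obtainable, and adjusted p = 0.00014 for r). They had r = 0.79 without AMB mKO replicate 2 (permutation adjusted p = 0.00084), and 0.76 without the 2 mice farthest from the Myod1 median, AMB mKO replicates 2 and 4. Within the title letters r was 0.87 (a, n = 9), 0.68 (b, n = 10) and 0.95 (c, n = 11). The value for the letter c includes AMB mKO replicate 2, here and for the pairs below. The marker of satellite cells and the commitment factor thus moved together from mouse to mouse, while neither was called between groups.

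Pax7 and Heyl had r = 0.73 and rho = 0.80 (permutation p = 3e-05, adjusted p = 0.00028 for r), 0.78 without AMB mKO replicate 2 and 0.69 without the 2 farthest mice. Within the letters a, b and c it was 0.87, 0.67 and 0.68. Myog and Heyl had r = 0.77 and rho = 0.73 (permutation p = 1e-05, adjusted p = 0.00014 for r), 0.71 without that library and 0.67 without the 2 farthest mice. Myod1 and Heyl had r = 0.77 and rho = 0.68 (permutation p = 0.0001, adjusted p = 0.000616 for r), 0.72 without that library and 0.67 without the 2 farthest mice. Within the letters a, b and c, Myog and Heyl had 0.70, 0.57 and 0.81. Myod1 and Heyl had 0.89, 0.65 and 0.71 there. The Notch-responsive repressor thus followed 3 of the myogenic genes across mice.

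The other pairs were looser. Myog and Pax7 had r = 0.82, which was 0.58 without AMB mKO replicate 2. Myod1 and Myog had 0.79 and then 0.56, and Myod1 and Cdh15 0.80 and then 0.50. These 3 pairs passed by Pearson's r and not by Spearman's rho once that library was left out. Within the letters a, b and c, Myog and Pax7 had 0.85, 0.34 and 0.90. Myod1 and Myog had 0.82, 0.21 and 0.87 there, and Myod1 and Cdh15 0.56, 0.42 and 0.82. Myf5 and Calcr formed a pair of their own, with r = 0.76 and rho = 0.72 (permutation p = 0.00011, adjusted p = 0.000616 for r), 0.62 without that library and 0.34, 0.76 and 0.94 within the letters a, b and c. Pax7 and Calcr, both markers of satellite cells, had r = 0.45, and -0.15 without that library (permutation adjusted p = 0.550). Myf6 did not pass with any other gene once it was left out, its r then running from -0.18 with Pax7 to 0.36 with Calcr.

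The tested genes most like each of the 8 in this measure are given by r over 30 mice and by r over the 29 without AMB mKO replicate 2, as a description. Cdh15 was the closest tracked, by Cand2 (0.99, then 0.95) and Gpc1 (0.98, then 0.95), both abundant at 177 and 290 CPM. Myf6 was closest to Cystm1 (0.95, then 0.77). Myod1 was closest to Grip2 (0.93, then 0.87) and Kbtbd13 (0.91, then 0.78). Pax7 was closest to Asb18 (0.92, then 0.64), and of its 5 closest genes Ppargc1b, a coactivator of mitochondrial genes, kept the highest value (0.91, then 0.81). Ppargc1b was also the closest to Heyl (0.81, then 0.79), followed by Prex1 (0.81, then 0.80). Myog was closest to Scx (0.85, then 0.67), a tendon transcription factor that was also among the 5 closest to Myod1 (0.91, then 0.78). Scx fell with unloading over both genotypes (log2 -1.71 ± 0.33, edgeR adjusted p = 0.000293), and neither Myog nor Myod1 was called there. Myf5 was closest to Gm15179 (0.88, then 0.70) and Calcr to Rmnd1 (0.82, then 0.73).

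The 8 lists of related genes held between 5 of 26 (adhesion and fusion) and 6 of 10 (calcitonin receptor signalling) called genes under unloading, and these counts are given as a description. In the comparison of HU with AMB over both genotypes, 28.5% of all genes were called, 14.2% higher and 14.3% lower, with a median log2 difference of -0.01 over all genes. The 8 tested members had a median of 0.18, with 6 values above and 2 below 0. Of 20 other tested satellite cell genes 2 rose and 2 fell, with a median of -0.17. Hs6st2, a heparan sulfate sulfotransferase, rose from means of 1.34 and 1.11 CPM in AMB Ctrl and AMB mKO to 2.10 and 2.63 CPM in HU Ctrl and HU mKO (log2 0.94 ± 0.24, edgeR adjusted p = 0.00424), and the chemokine receptor Cxcr4 rose by 0.45 ± 0.17. The adhesion molecule Vcam1 fell by 0.70 ± 0.20 and Chodl fell by 0.82 ± 0.30. Without the 3 adipocyte-rich libraries 3 rose and 4 fell. In all 4 of 20 were called, against 28.5% of all genes.

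Of 17 tested genes of E protein partners and inhibitors of the myogenic factors, 1 rose and 4 fell, with a median of -0.11. Id1, an inhibitor that sequesters E proteins, fell from 14.6 ± 5.07 and 13.4 ± 4.04 CPM in AMB Ctrl and AMB mKO to 7.33 ± 2.23 and 7.21 ± 1.43 CPM in HU Ctrl and HU mKO (log2 -0.90 ± 0.15, edgeR adjusted p = 6.86e-05). Id3, of the same family, fell by 0.55 ± 0.15, and Sox8 fell by 1.10 ± 0.27. The E protein gene Tcf12 rose by 0.23 ± 0.08. Mdfi, an inhibitor that binds Myod1 protein, fell by 0.88 ± 0.33 and was not called without AMB mKO replicate 2 (edgeR adjusted p = 0.0749). Id1 was called in Ctrl mice (-1.02 ± 0.21) and in mKO mice (-0.77 ± 0.22). The call in mKO mice was lost with limma (log2 -0.58, adjusted p = 0.111) and without the 3 adipocyte-rich libraries (adjusted p = 0.0620 in edgeR).

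In the Notch pathway, which holds satellite cells in quiescence and induces Heyl, 4 of 24 tested genes rose and 2 fell, with a median of -0.10. The nuclear partner Rbpj rose by 0.27 ± 0.07 and the coactivators Maml3 and Maml2 by 0.36 ± 0.09 and 0.37 ± 0.14. The ligand gene Dll1 rose by 0.61 ± 0.22, and was not called without AMB mKO replicate 2 (edgeR adjusted p = 0.0534). The endothelial receptor Notch4 fell by 0.64 ± 0.13 and the glycosyltransferase Lfng by 0.57 ± 0.17. Notch3, a receptor of satellite cells and mural cells, measured -0.38 ± 0.15 (edgeR adjusted p = 0.0531), the same size as Heyl, and the targets Hes1 and Hey1 measured -0.10 ± 0.20 and -0.14 ± 0.17. Of 10 endothelial markers 4 fell beside Notch4, with summed levels of 461 to 737 CPM in AMB Ctrl and 405 to 550 CPM in HU Ctrl. None of these markers was at 0 in all 30 libraries. Their part in the result was not tested. Without the 3 adipocyte-rich libraries 4 Notch genes rose and 4 fell.

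Among 10 tested genes of calcitonin receptor signalling 1 rose and 5 fell, with a median of -0.33. The 3 chains of collagen V, a ligand of the calcitonin receptor on satellite cells, were lower in HU mice: Col5a1 fell by 1.11 ± 0.27, Col5a2 by 1.25 ± 0.30 and Col5a3 by 0.98 ± 0.31. Col5a1 measured 144 ± 58.8 and 213 ± 161 CPM in AMB Ctrl and AMB mKO and 81.9 ± 31.6 and 82.8 ± 38.8 CPM in HU Ctrl and HU mKO. The receptor partner Ramp3 fell by 1.17 ± 0.25, Ramp2 fell by 0.33 ± 0.12 and Ramp1 rose by 0.58 ± 0.21. Col5a3 (edgeR adjusted p = 0.124) and Ramp2 (edgeR adjusted p = 0.111) were not called without AMB mKO replicate 2. Markers of tenocytes, which make tendon matrix, were lower beside them: 4 of 10 fell, none rose, all 10 had lower values and the median was -0.78. Their summed level ran from 198 to 2561 CPM in AMB Ctrl and from 104 to 2997 CPM in HU Ctrl, and none was at 0 in all 30 libraries. Of 10 fibro-adipogenic progenitor markers 1 fell, with a median of -0.20 over both genotypes, -0.57 in mKO mice and 0.25 in Ctrl mice. Their part in the collagen values was not tested. Calcr itself had a higher value in HU mice, 0.47 ± 0.32, that was not called (edgeR adjusted p = 0.291).

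Of 26 tested genes of myoblast adhesion and fusion none rose and 5 fell, with a median of -0.02. Itgb1, the integrin β1 chain, fell by 0.36 ± 0.08, Jam2 fell by 0.64 ± 0.14, the tetraspanin Cd81 fell by 0.41 ± 0.10 and Kirrel3 fell by 1.05 ± 0.32. With AMB mKO replicate 2 left out, none rose and 7 fell. Mymx, the fusion partner of Mymk, did not pass the low-count filter either. Of 15 tested cell cycle genes none rose and 6 fell. Mki67 fell from 3.08 ± 1.60 and 4.11 ± 3.78 CPM in the AMB groups to 1.14 ± 0.765 and 1.16 ± 0.616 CPM in the HU groups (log2 -1.59 ± 0.38, edgeR adjusted p = 0.00244), Top2a fell by 1.71 ± 0.35 and Ccnd1 fell by 1.49 ± 0.21. Leaving out AMB mKO replicate 2 gave 2 that rose and 5 that fell. Macrophages and other dividing cells of the tissue also transcribe these genes. Of 10 macrophage markers none was called, with summed levels of 121 to 310 CPM in AMB Ctrl and 137 to 359 CPM in HU Ctrl, and their part in the result was not tested.

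Of 16 tested genes known as targets of Myog or of denervation 5 rose and 1 fell, with a median of 0.54, where 14.2% of all genes rose and 14.3% fell. Myog itself measured 0.10. Hdac4, a class IIa histone deacetylase, rose from 115 ± 29.2 and 116 ± 32.2 CPM in AMB Ctrl and AMB mKO to 248 ± 80.1 and 295 ± 52.5 CPM in HU Ctrl and HU mKO (log2 1.26 ± 0.14, edgeR adjusted p = 4.64e-07). Gadd45a rose by 0.93 ± 0.20, and Chrnb1, an acetylcholine receptor subunit, and Musk, the receptor kinase of the synapse, each rose by 0.78 (SE 0.16 and 0.23). Ankrd1, a load-sensitive ankyrin repeat gene, fell by 2.32 ± 0.40. Chrne rose by 2.21 ± 0.65 with a wide spread (AMB Ctrl 2.14 ± 2.37, HU Ctrl 5.48 ± 5.01 CPM) and was not called by limma (adjusted p = 0.158). The embryonic receptor subunit gene Chrng did not pass the low-count filter, and Chrna1 measured 0.76 ± 0.35 (edgeR adjusted p = 0.102).

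Of 13 tested developmental and early differentiation genes 2 rose and 4 fell, with a median of -0.39. Myh3, embryonic myosin, fell from 104 ± 56.4 and 121 ± 77.2 CPM in AMB Ctrl and AMB mKO to 14.8 ± 4.57 and 28.0 ± 19.7 CPM in HU Ctrl and HU mKO (log2 -2.52 ± 0.35, edgeR adjusted p = 8.1e-06). The imprinted RNA H19 fell by 2.04 ± 0.29 and the intermediate filament gene Nes by 1.27 ± 0.21. Tnnt2, cardiac troponin T, rose by 1.34 ± 0.20 and Mybph by 1.93 ± 0.47. There were 2 that rose and 7 that fell without AMB mKO replicate 2. Slow and mixed fibre markers were lower too, 4 of 10 having fallen, and their summed level ran from 47845 to 93633 CPM in AMB Ctrl and from 24788 to 53917 CPM in HU Ctrl. Their part in these results was not tested.

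**Figure D4:**
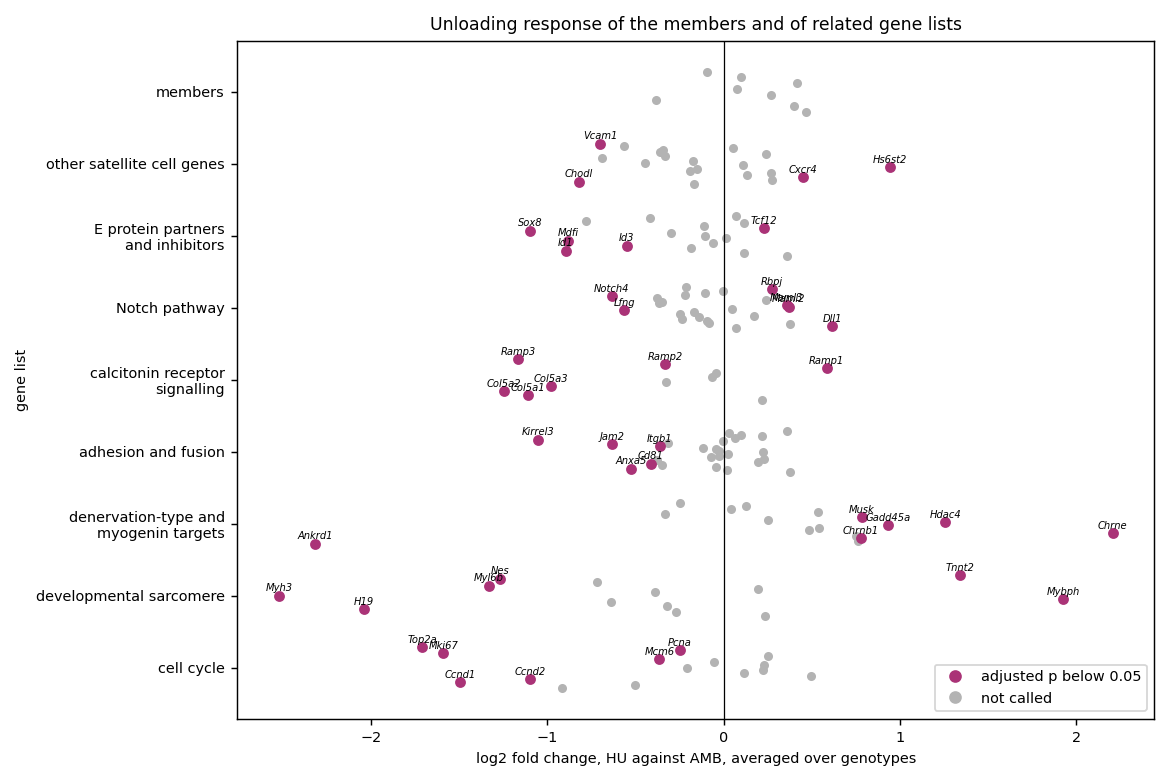
Fitted log2 fold changes of HU against AMB over both genotypes (x axis) for the 8 tested genes ("members") and for 8 lists of related genes (y axis). Filled purple points are genes with an adjusted p below 0.05, named beside the point, and grey points were not called. None of the members is purple, while Myh3, Ankrd1 and H19 lie furthest to the left and Chrne and Mybph furthest to the right.

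Of the genes named above over both genotypes, Cxcr4, Chodl, Dll1, Maml2, Ramp1, Ramp2, Col5a3, Tcf12 and Mdfi were not called when no low-count filter was applied and 35982 genes were tested (edgeR adjusted p from 0.0515 for Col5a3 to 0.103 for Chodl).

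No gene of these 8 lists was called between mKO and Ctrl in AMB or in HU mice, or for the interaction, by edgeR. For the members, the fitted interaction values ran from -0.34 (Myog) to 1.10 (Myf5), with standard errors of 0.33 to 0.68. The intervals leave differences of the unloading response between genotypes of up to 2.28 (Calcr) on the log2 scale within reach.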

How the data were processed

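Total RNA of 30 mouse soleus muscles was sequenced on an Illumina NovaSeq from directional libraries, per the labels. The authors deposited unnormalised read counts for each Ensembl gene, with a column for every mouse. The submitters' processing notes name cutadapt 1.16, STAR 2.7.9a, featureCounts 1.6.3, DESeq2 1.34.0 and the builds GRCm39 and mm39. The labels state neither the strand setting nor the annotation release, so reads of overlapping genes on opposite strands may not be separated. Protocol texts attached to the samples describe people and myotubes and were used for the library kit only.

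Groups and sex come from the sample characteristics. Replicate numbers follow accession order. Nothing says how tissue was divided beyond 1 sample per title, so p-values measure the spread between these samples.

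Of 56980 genes, 16932 passed filterByExpr and were tested in edgeR 4.0.16 (R 4.3.3) with TMM scaling and a robust quasi-likelihood model with a term per group and a term for sex. The 7 comparisons were mKO against Ctrl in AMB and in HU, HU against AMB in Ctrl, in mKO and averaged over genotypes, the interaction, and female against male. Calls were made at p below 0.05 after Benjamini-Hochberg adjustment over the tested genes. Values after ± are SE beside log2 differences and SD beside means. The 95% intervals are 1.96 SE either way, an approximation somewhat narrower than the edgeR test implies. Folds come from the model. Levels per kilobase use exon lengths of GENCODE M21, on an earlier build than the counts. Correlations use log2 CPM with a prior count of 2. The fit was tested on simulated data.

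The members and lists were chosen with earlier results of these data known. All 9 members are named in the report, up to 4 or a few more genes of each list by smallest p, and the 5 genes most like each member were computed. Genes of a list that were not called are named where their role needed it, after their values were seen. Alternatives were median-of-ratios (RLE) size factors, DESeq2 1.42.0, limma 3.58.1 with library weights, no low-count filter, the title letter as covariate, no sex term, a model of the compared groups alone, and leaving out AMB mKO replicate 2 or the 3 adipocyte-rich libraries. A gene that this rule names is not reported here.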

Additional observations from a re-analysis of the deposited data

Results flagged for a closer look

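Of 36 sets of values (9 genes in 4 groups), 4 were flagged by Dixon's criterion. In these the gap of 1 mouse to its nearest neighbour was large for the range of its group. For independent, normally distributed values chance gives this in about 1 of 20 sets. CPM values near 0 need not be normal and the genes share libraries, so 4 of 36 cannot be read against that rate. Myf6 in AMB mKO replicate 2 was 2.94 CPM, with the next mouse at 40.9 CPM. Myf6 in HU Ctrl replicate 1 was 60.9 CPM, with the next at 42.4 CPM. Mymk in AMB mKO replicate 4 was 0.790 CPM, with the next at 0.281 CPM. Heyl in HU Ctrl replicate 4 was 18.6 CPM, with the next at 12.8 CPM.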

How the results depend on the processing

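Of 472 values of single genes under alternatives, 467 stayed on their side of the threshold and 435 kept their sign. The other 5, 4 of Heyl and 1 of Cdh15, passed it, and the cause was not tested. In HU against AMB averaged over genotypes, none of the 8 genes was called in the reported fit, 2 by limma with library weights, 1 without AMB mKO replicate 2 (Heyl) and 1 without the 3 adipocyte-rich libraries (Heyl). In HU against AMB in Ctrl mice 0 were called, and 1 by limma (Heyl, log2 -0.59, adjusted p = 0.0281). Called correlations numbered 18, and 8 without AMB mKO replicate 2, where the setting itself removes that mouse. Over all genes, mKO against Ctrl in AMB called 3, and 9 with DESeq2 or 1 with the compared groups alone. HU against AMB in Ctrl called 1882, and 3409 with limma, 1225 without the low-count filter and 3098 with the groups alone. HU against AMB in mKO called 1702, and 2781 with limma, 987 without the filter, 2591 with the title letter and 608 with the groups alone. Female against male called 36, and 129 with DESeq2 or 55 with the title letter. No paired analysis was possible because the replicate numbers follow accession order and pair no mice. Depth limits Mymk, with 0 to 10 reads per library, and Myf5 and Calcr, whose fitted standard errors reach 0.59 and 0.68 for the interaction.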
